A study of Mus musculus with 5 samples.

Results

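The genes described here encode the subunits of the vacuolar proton pump (V-ATPase) and the cathepsins, proteases most of which work in the acid made by that pump. Rows were taken where the symbol starts with Atp6v0 or Atp6v1, or is Cts plus 1 letter, and where all cells together held at least 20 UMIs (molecular identifiers, each marking 1 captured transcript). Atp6v0d2 and Ctsk, whose products are known from osteoclasts, were left out by the rule. Of 21617 genes, 34 symbols matched and 30 reached the minimum, 17 V-ATPase subunits and 13 cathepsins. The 4 that did not were Atp6v1c2 with 11 UMIs, Atp6v1b1 and Atp6v1fnb with 10 each and Atp6v1g3 with 8. Ctsg with 29 and Atp6v0a4 with 37 UMIs lay just inside the minimum, and 25 of the 30 had at least 1000 UMIs. Together the 30 genes held 1.73% of all UMIs. On build GRCm38 with GENCODE M21, Ctsl lies at chr13:64359337-64370890 (- strand), Ctsd at chr7:142375911-142388038 (- strand), Ctsc at chr7:88278085-88310888 (+ strand) and Atp6v1h at chr1:5070018-5162529 (+ strand).

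The data are 5 droplet-based 3' single-cell libraries of mouse cells, 1 per group, from foreign body granulomas formed on silk or sponge and from a control. Silk granulomas at 4 weeks gave 1873 cells, silk granulomas at 2 weeks 10231, sponge granulomas at 4 weeks 7701 and sponge granulomas at 2 weeks 12347. The control library held 9039 cells, labelled as macrophages elicited with thioglycollate, a sterile irritant used to recruit such cells. The control thus differs from the granulomas in how its cells were elicited as well as in the material, and these cannot be told apart. The labels used here state no strain, sex, age or number of animals for any library. The authors' deposited classes were used, and the class deposited as Mo-Mac/DC is called Mo-Mac cells.

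Mo-Mac cells had a summed level of 8 macrophage markers of 21489 and 19665 CPM in silk at 4 and 2 weeks and 16552 and 16749 CPM in sponge at 4 and 2 weeks, against 24721 CPM in control, and none of the 8 was at 0. The median Mo-Mac cell held 4217 and 4337 UMIs in silk at 4 and 2 weeks, 3078 and 4729 in sponge at 4 and 2 weeks, and 7749 in control. Median mitochondrial percent was 4.49 and 3.83 in silk and 6.61 and 3.23 in sponge at 4 and 2 weeks, and 3.50 in control. Among 41191 cells, 153 barcodes occurred in more than 1 library. Counts were summed per library and cell group and scaled to CPM by the total of that sum, so that a level is a share of the RNA counted in those cells. With 1 library a group no test across libraries was possible. A gene was called where its CPM differed at least 2-fold with 10 CPM added to both sides, in each contrast of a comparison, from genes with at least 100 UMIs over both sums. Intervals cover counting error only.

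The V-ATPase is a rotary machine in the membranes of endosomes and lysosomes. Its V1 sector on the cytosolic side splits ATP, and the turning stalk drives the ring of the V0 sector, which carries protons into the lumen. Most cathepsins are made as inactive precursors, are sorted to lysosomes and become active as the lumen turns acid. In macrophages they break down engulfed proteins and help prepare antigens for class II molecules, and macrophages on a foreign surface are known to release acid and cathepsins towards it. Lysosomal genes, many V-ATPase subunits among them, are known to share an E-box bound by the MiT/TFE transcription factors.

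Promoter sequence is shown for the members that held a motif searched, as a description of their letters. RefSeq windows on build GRCm38.p6, from 250 bases before to 50 after a transcript start, were found for 21 of the 30 genes, as 25 windows. The motif TCACGTGA was in 5 of the 25 windows (20%), against 0.974% of all 32851 windows. Its core CACGTG was in 8 (32%), against 7.15% of all windows. Both motifs read the same on both strands, and the core lies within the longer motif. From each of the 8 windows 30 bases are shown, 5′ to 3′ in the gene's direction, with the match in capitals.
Atp6v0d1, chr8:105566050-105566079 (- strand): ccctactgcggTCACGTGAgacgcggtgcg
Atp6v0e, chr17:26676387-26676416 (+ strand): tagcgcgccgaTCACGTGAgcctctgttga
Atp6v1a, chr16:44139373-44139402 (- strand): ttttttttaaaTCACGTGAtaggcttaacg
Atp6v0b, chr4:117887347-117887376 (- strand): tgcgcgggggtCACGTGgggtcggcgcatc
Ctsa, chr2:164833749-164833778 (+ strand): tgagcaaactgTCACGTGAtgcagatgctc
Ctsd, chr7:142387908-142387937 (- strand): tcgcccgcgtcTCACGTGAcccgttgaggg
Ctsf, chr19:4855075-4855104 (+ strand): accccgtggtcCACGTGcctcgcgtaaata
Ctsl, chr13:64370738-64370767 (- strand): gcgttagaagcCACGTGctgatctaaattc

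In bases from the RefSeq start, the first letter of the match lay at -4 in Atp6v0d1, 2 in Atp6v0e, -132 in Atp6v1a, -99 in Ctsd and -13 before 1 of the RefSeq starts of Ctsa. By GENCODE M21 on the same build, the stretches of Atp6v0e, Ctsa, Ctsd and Ctsl overlap an exon with untranslated sequence of the gene itself. The stretch of Atp6v1a lies within the gene outside exons, and those of Atp6v0d1, Atp6v0b and Ctsf lie in no annotated gene. The other 13 genes with a window had neither motif in it, among them Atp6v0c, Atp6v1d, Ctss, Ctsz and Ctsc. The part of the motif in the levels described below was not tested.

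Mo-Mac cells and neutrophils, the professional phagocytes of the granulomas, had the highest summed V-ATPase levels, and Mo-Mac cells the highest summed cathepsin level. The 17 V-ATPase subunits together reached 5022 and 5591 CPM in silk at 4 and 2 weeks and 5869 and 5254 CPM in sponge at 4 and 2 weeks, against 5133 CPM in control Mo-Mac cells. In neutrophils they reached 4071 and 4975 CPM in silk at 4 and 2 weeks and 5945 and 5481 CPM in sponge at 4 and 2 weeks, so the ranges of both cell types overlap. Fibroblasts, endothelial cells and NK/T cells lay between 1449.8 and 1844 CPM in all libraries with at least 50 such cells. The 13 cathepsins together reached 13592 and 14260.5 CPM in silk at 4 and 2 weeks and 15129.8 and 17814 CPM in sponge at 4 and 2 weeks, against 25754 CPM in control Mo-Mac cells. They reached 3408 and 5323 CPM in silk at 4 and 2 weeks and 4732 and 6609.7 CPM in sponge at 4 and 2 weeks in neutrophils, below Mo-Mac cells of the same library in each case. Fibroblasts held 2857 to 3207 CPM and B cells of the control library 5992 CPM. Free macrophage RNA in these B cells is taken up below.

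**Figure D1:**
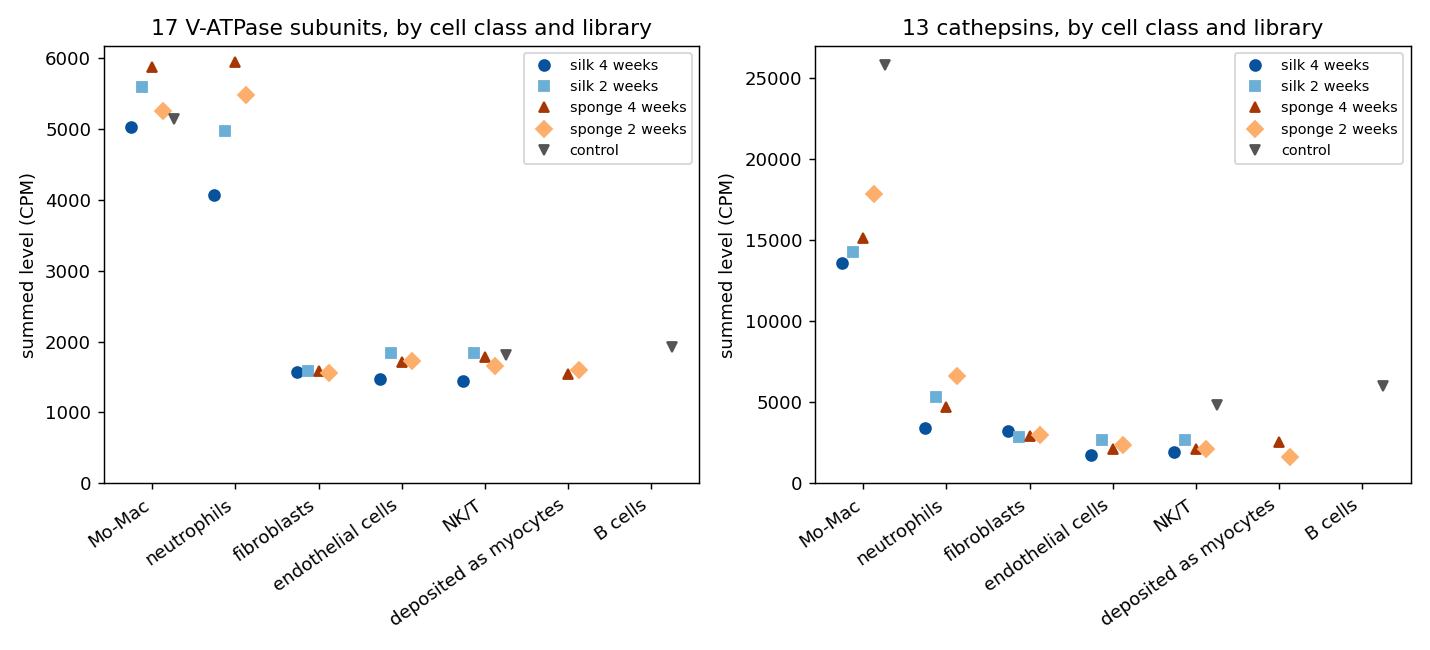
Summed level in CPM of the 17 V-ATPase subunits (left) and of the 13 cathepsins (right) in each deposited cell class; each point is 1 library with at least 50 cells of the class. For the pump Mo-Mac cells and neutrophils stand above the other classes, and for the cathepsins the control Mo-Mac cells at 25754 CPM stand above all granuloma libraries.

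Against fibroblasts, the matrix-producing cells of the granuloma wall, 17 of 24 tested members were at least 2-fold higher in Mo-Mac cells in all 4 granulomas, where 10.5% of all tested genes were. They were 11 V-ATPase subunits and the cathepsins Ctsb, Ctsc, Ctss, Ctsz, Ctsd and Ctsa. Atp6v0c, the main subunit of the proton-carrying ring, had 1353 to 1661 CPM in Mo-Mac cells and 233 to 316 CPM in fibroblasts. Ctss, which trims the invariant chain of class II molecules, had 3076 to 3370.2 CPM in Mo-Mac cells and 44.2 to 127 CPM in fibroblasts, and Ctsd had 2464 to 3256 CPM in Mo-Mac cells and 387 to 469 CPM in fibroblasts. Ctsf alone was called lower in Mo-Mac cells, where 10.4% of genes were, with 2.72 to 8.52 CPM in Mo-Mac cells and 29.4 to 66.5 CPM in fibroblasts. This call was lost with 50 CPM added and with cells thinned to 1000 UMIs. Atp6v0a2, an a subunit best known from the Golgi, was also lower in Mo-Mac cells in all 4 granulomas but by less than 2-fold, with 28.9 to 44.0 CPM in Mo-Mac cells and 44.6 to 50.3 CPM in fibroblasts.

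The order against NK/T cells and endothelial cells was much the same by count. Against NK/T cells, 17 of 23 members were called higher in Mo-Mac cells (all genes 10.2%) and 0 lower (all genes 5.54%). Against endothelial cells, 16 of 23 were called higher (9.95%) and 0 lower (9.66%). Atp6v0a2 stood against this direction here too, with 28.9 to 44.0 CPM in Mo-Mac cells and 42.6 to 54.4 CPM in NK/T cells and 63.1 to 82.4 CPM in endothelial cells. By mean log2 ratio Ctsl, Ctss and Ctsb were the highest members against NK/T cells and Ctss, Ctsc and Ctsd against endothelial cells. Among the 23 members tested in every granuloma, Ctso was the lowest after Atp6v0a2 in both. It was followed by Atp6v1f against NK/T cells and Atp6v1h against endothelial cells. Ctsw was not among the 23 against NK/T cells, as it missed the UMI minimum in silk at 4 weeks. Where Ctsw was tested it was lower in Mo-Mac cells, by a log2 ratio of -4.01 in silk at 2 weeks. In sponge its ratios were -3.82 and -4.6 at 4 and 2 weeks. Ctss had 3076 to 3370.2 CPM in Mo-Mac cells and 10.9 to 237 CPM in endothelial cells. Most members of both families were thus at a higher share of the RNA in Mo-Mac cells than in any of these 3 classes.

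Between Mo-Mac cells and neutrophils the calls lay in the proteases and not in the pump. Of 23 members, 7 (30.4%) were called higher in Mo-Mac cells in all 4 granulomas, where 21.6% of all genes were. These 7 were all cathepsins (Ctsb, Ctsc, Ctsh, Ctsl, Ctso, Ctss and Ctsa). Among genes of at least 50 CPM in the higher group, a limit chosen after seeing the data, 6 of 21 members (28.6%) were called higher. Of all such genes 29.3% were, so the members were called about as often as other genes. In the main setting 0 members were called lower, where 4.5% of all genes were. Ctss had 3076 to 3370.2 CPM in Mo-Mac cells and 132 to 777 CPM in neutrophils, and Ctsh, an aminopeptidase, had 277 to 364 CPM in Mo-Mac cells and 36.1 to 109 CPM in neutrophils. Atp6v1g1, of the outer stalk, had 342 to 464 CPM in Mo-Mac cells and 433 to 479 CPM in neutrophils and was lower in Mo-Mac cells of every granuloma, by log2 ratios of -0.33 and -0.10 in silk and -0.02 and -0.20 in sponge at 4 and 2 weeks. Median log2 ratios of the V-ATPase subunits were 0.37 and 0.31 in silk and 0.23 and 0.24 in sponge at 4 and 2 weeks. By mean Atp6v0d1 and Atp6v0c were next lowest. The median over all tested genes was higher than that of the pump, 0.94 and 0.48 in silk and 0.70 and 0.49 in sponge at 4 and 2 weeks, so that relative to it the pump's medians turn negative and 4 cathepsins (Ctsc, Ctsh, Ctsl and Ctss) stay called. The median neutrophil held 1083 to 1892.5 UMIs, and the silk library at 4 weeks had 69 of them.

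Macrophage transcripts outside macrophages bear on the low levels. The 6 genes C1qa, C1qb, C1qc, Adgre1, Csf1r and Ms4a7, known from macrophages, served as a yardstick for such RNA, as the percent of their Mo-Mac CPM found in another class. In fibroblasts the yardstick reached at most 5.33%, and only Ctss of the tested members was at or below it in all 4 granulomas. In neutrophils it reached 43.5%, and Ctsc, Ctsh, Ctsl, Ctso and Ctss were at or below the highest yardstick gene of the same library in each granuloma. In silk at 2 weeks the median yardstick gene stood at 21.5%, and the lowest member at 21.8%. The part of free RNA in these neutrophil levels was not tested. In NK/T cells 11 of 25 members were above it in silk at 2 weeks and 24 of 25 in sponge at 2 weeks. In B cells of the control library the yardstick reached 22.4%, and Ctsb, Ctsf, Ctsl and Ctsd were at or below it, with 22 of 26 members above. The part of free RNA in the summed cathepsin level of these B cells was not tested.

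A few members were held by 1 class. Ctsw, a cathepsin of NK and cytotoxic T cells, had 955 of its 1032 UMIs in NK/T cells, at 128 to 238 CPM over the 5 libraries. Ctsf had 72.7% of its 4115 UMIs in fibroblasts. The a4 subunit gene Atp6v0a4, known from kidney, had 36 of 37 UMIs in fibroblasts, and the small membrane subunit gene Atp6v0e2 had 74 of 113 there. Ctsg, a serine protease of neutrophil and mast cell granules, had 19 of 29 UMIs in the myeloid subcluster C9, which was left out of the Mo-Mac sums. Ctse, an aspartic protease, had 72 of 222 UMIs in B cells.

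Over the authors' myeloid subclusters the pump and the proteases spanned a wide range. The subclusters were made from these cells, so the values are a description, and C9 is left aside in the orders that follow. C1, C2 and C10 came almost entirely from the control library, with 6476, 706 and 550 control cells, and C3 to C8 from the granulomas. Summed V-ATPase CPM was 7968 in C2 and, as a mean over granuloma libraries with the range in brackets, 6049 (5496 to 6506) in C7, 5438 (4109.9 to 6222) in C8 and 5112 (4911 to 5307) in C5. It was lowest in C3 at 3012 (2747 to 3371) and in C10 at 2333. Summed cathepsin CPM was 34359 in C2, 25126 in C1, 21324 (19386 to 24513) in C5 and 17966 (15075 to 24377) in C7, and it was lowest in C3 at 5209.5 (5015 to 5546). From highest to lowest subcluster the spread was 3.41-fold for the pump and 6.6-fold for the cathepsins.

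Most subunits of the V1 head and stalk were highest in C2. Atp6v1a, the catalytic subunit, stood at 765 CPM in C2, 459 (407 to 516) in C7 and 101 in C10. Atp6v1c1, which joins head and membrane sector, stood at 420.0 in C2, 189 (157 to 214) in C7 and 48.5 (37.1 to 53.9) in C3. Atp6v1e1, of the outer stalk, was first in C7 at 532 (475 to 607), a range that includes the C2 value of 501. Atp6v1h, a regulatory subunit of the V1 sector, ran differently. It was highest in C5 at 163 (155 to 168), overlapping C6 at 136 (113 to 159), and was 58.5 in C1 of the control. Atp6v1f, of the central stalk, varied least of the V1 subunits, from 447 in C2 to 234 in C10.

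In the V0 sector, Atp6v0c stood at 2281 CPM in C2, 1656 (1484 to 1884) in C7 and 477 in C10. Atp6v0a1, an a subunit, had the widest spread, with 301 in C2, 220.2 (205 to 233) in C5 and 29.2 (23.4 to 35.7) in C3. Atp6v0d1, which couples ring and stalk, was highest in C5 at 246 (222 to 272), but C7, C2, C8, C6 and C4 overlapped in turn. Atp6v0a2 was first in C10 at 43.9 and last in C5 at 23.9 (21.0 to 26.9), with 27.1 in C2. Atp6v0b and Atp6v0e, of the ring and beside it, were both highest in C2 and next in C7.

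**Figure D2:**
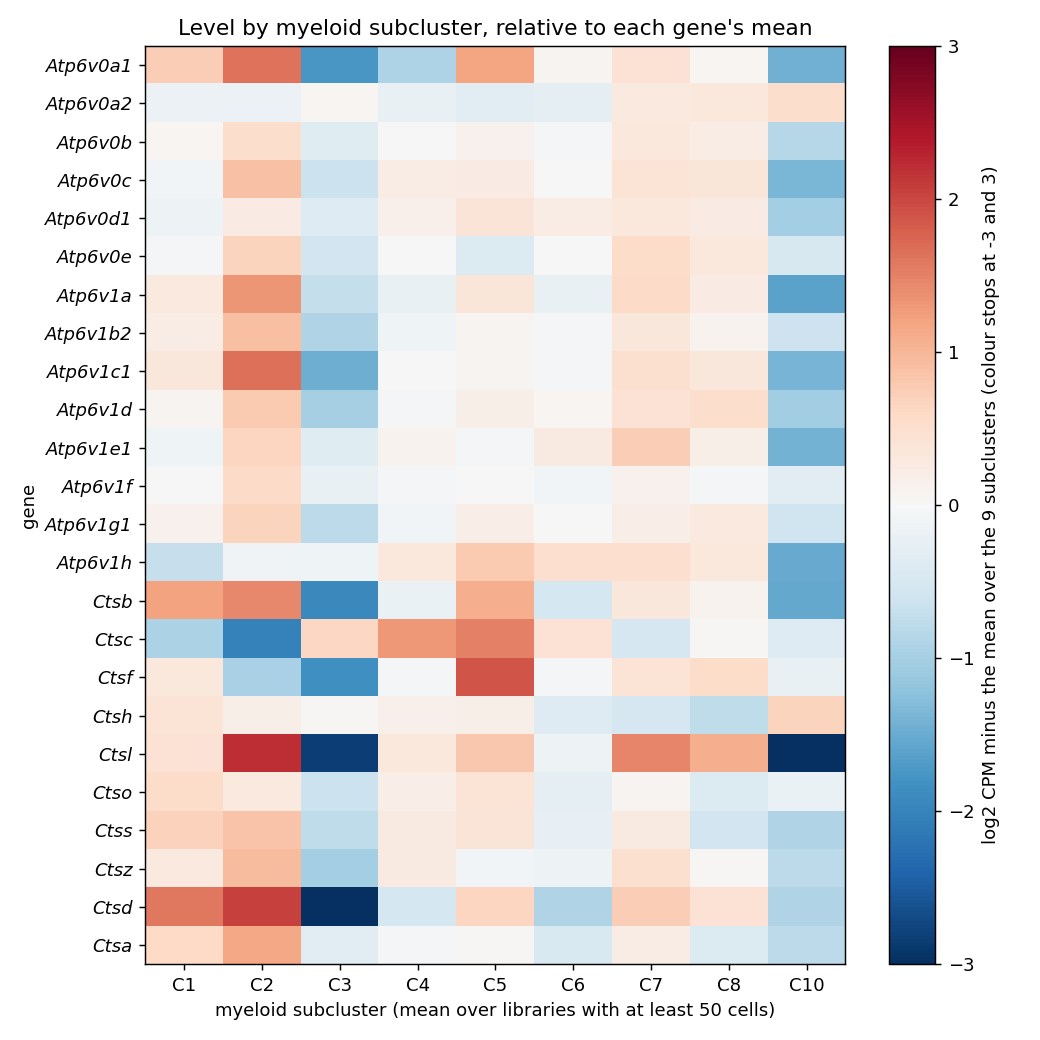
Level of 24 members with at least 1000 UMIs in 9 myeloid subclusters, as log2 CPM (equal-weight mean over libraries with at least 50 cells) minus each gene's own mean over the subclusters; red is above and blue below that mean. C2 is red and C3 and C10 blue for most rows, and among the exceptions are Ctsc and Ctsf, at 114 and 1.99 CPM in C2, Ctsh, at 606 CPM in C10, and Atp6v0a2.

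Among the cathepsins Ctsd and Ctsl had the widest spread. Ctsd, the main aspartic protease of lysosomes, stood at 9227 CPM in C2, 6636 in C1, 3708 (2878 to 4035) in C7 and 256 (247 to 265) in C3. Ctsl, an endopeptidase, stood at 4977 in C2, 2952 (1049 to 6667) in C7 and 152 (91.7 to 253) in C3. Its C7 range includes the C2 value. Ctsb, a protease that cuts both within chains and from their ends, stood at 11409.6 in C2, 9604 in C1, 8966 (7282 to 10915) in C5 and 1091 (935 to 1243) in C3. The C5 range includes the C1 value.

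A pair of cathepsins ordered the subclusters another way. Ctsc, the dipeptidyl peptidase that activates granule serine proteases, stood at 1331 (1106 to 1503) CPM in C5, 1152 (957 to 1530.0) in C4, 725 (591 to 858) in C3 and 114 in C2. Thus C2, first for Ctsd, Ctsl and Ctsb, was last for Ctsc. Ctsh stood at 606 in C10, 501 in C1 and 222 (204 to 242) in C8. Ctss kept to 5385 in C2, 4819 in C1 and 1587 in C10. Ctsz, a carboxypeptidase, and Ctsa, which also shields other lysosomal enzymes, were highest in C2 at 1819 and 954. Ctso, a little studied cysteine cathepsin, stayed between 20.5 (16.4 to 27.3) in C3 and 47.1 in C1. Genes induced by tissue dissociation, which move with the subclusters, summed to 22761 CPM in C5 and 4057 CPM in C2, and their part in these orders was not tested.

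Over 24 units of subcluster and library, the levels of 14 V-ATPase subunits went together. The median Spearman correlation over their 91 pairs was 0.74, and 88 pairs were positive. Atp6v0a2 was the exception, with a median of 0.08 with the others. The 55 cathepsin pairs had a median of 0.28. They include Ctsw and Ctsf, whose highest subcluster means were 0.245 and 14.4 CPM, and Ctsw had a median of 0.04 with the other cathepsins. The pump's Atp6v0a4, Atp6v0e2 and Atp6v1g2, also low, are not among the 14, so the medians of both families are not on like terms. With the pump's subunits, Ctsl and Ctsz had a median of 0.75, Ctsb of 0.74 and Ctsd of 0.73, and Ctsh and Ctsc had -0.34 and -0.35. Units of 1 library share its depth and handling, units of 1 subcluster share their definition, and so these values are a description. No value for pairs of other genes over these units is given here, so going together is not shown to be particular to the pump.

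The main contrast of the design sets granulomas against elicited control macrophages. In Mo-Mac cells the subunits of the pump as a group were at about the control level, and most cathepsins were below it. Of 25 tested members, 0 were called higher in all 4 granulomas, where 2.79% of all tested genes were. Ctsd alone was called lower, which is 1 of 25, where 1.2% of genes were. Without a size limit, 6 of 15 V-ATPase subunits and 1 of 10 cathepsins were higher in all 4 (all genes 27.7%), and 3 of 15 and 7 of 10 lower (all genes 40%). The 4 contrasts share 1 control library.

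Median log2 ratios of the V-ATPase subunits were -0.03 and 0.09 in silk and 0.09 and -0.03 in sponge at 4 and 2 weeks, beside -0.04 and -0.03 in silk and -0.02 and -0.07 in sponge at 4 and 2 weeks over all tested genes. Of the V1 sector, Atp6v1h had 114 and 129.6 CPM in silk at 4 and 2 weeks and 151 and 132 CPM in sponge at 4 and 2 weeks, against 62.8 CPM in control cells, with log2 ratios of 0.77 and 0.94 in silk and 1.14 and 0.97 in sponge at 4 and 2 weeks. All 4 granulomas were above control for it, and with cells thinned to 1000 UMIs it was called higher. All were above for Atp6v1e1, with 428 and 499 CPM in silk at 4 and 2 weeks and 523 and 387 CPM in sponge at 4 and 2 weeks, against 324 CPM in control cells. Atp6v1c1 was below control in each granuloma, with 138 and 173 CPM in silk at 4 and 2 weeks and 183 and 154 CPM in sponge at 4 and 2 weeks, against 209 CPM in control cells. Atp6v1a, the catalytic subunit, had 361 and 416 CPM in silk at 4 and 2 weeks and 438 and 346 CPM in sponge at 4 and 2 weeks, against 435 CPM in control cells, on both sides of control. So did Atp6v1b2, its partner in the head, with 361 and 379 CPM in silk at 4 and 2 weeks and 435 and 335 CPM in sponge at 4 and 2 weeks, against 429.7 CPM in control cells.

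Of the V0 sector, Atp6v0a1 was the lowest relative to control, with 108 and 106 CPM in silk at 4 and 2 weeks and 149 and 107 CPM in sponge at 4 and 2 weeks, against 180.0 CPM in control cells. Atp6v0d1 had 197 and 256 CPM in silk at 4 and 2 weeks and 233 and 211 CPM in sponge at 4 and 2 weeks, against 174 CPM in control cells, all above control. Atp6v0c, with 1353 and 1537 CPM in silk at 4 and 2 weeks and 1501 and 1661 CPM in sponge at 4 and 2 weeks, against 1332 CPM in control cells, was also above control in each granuloma, in silk at 4 weeks by a log2 ratio of 0.02 (counting interval -0.01 to 0.05). Atp6v0a2 and Atp6v0e were above control in each as well, by log2 ratios of at most 0.51 and 0.32. The a subunits are alternatives in the complex. Tcirg1, which encodes the a3 subunit and is no member by its symbol, had 213 and 212 CPM in silk at 4 and 2 weeks and 218 and 183 CPM in sponge at 4 and 2 weeks, against 169.6 CPM in control cells, above control in each granuloma.

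**Figure D3:**
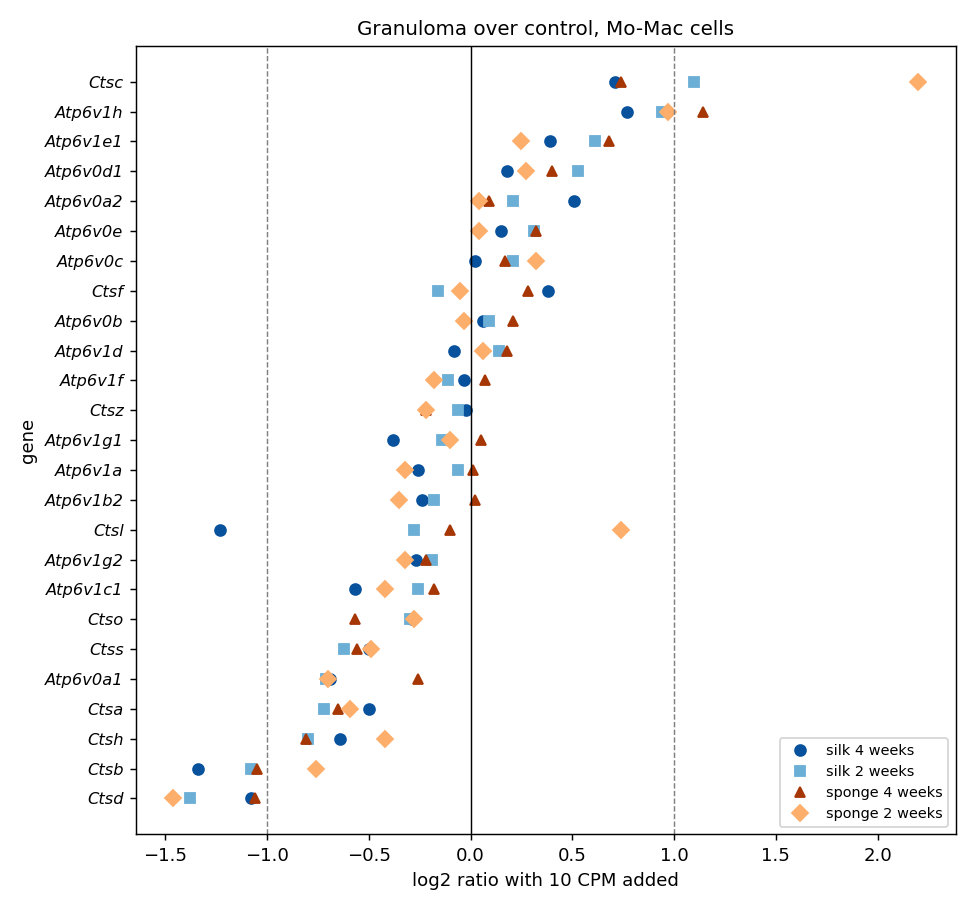
Log2 ratio of each granuloma library over control in Mo-Mac cells, with 10 CPM added to both sides, for the 25 members with at least 100 UMIs in every contrast; each point is 1 library and dashed lines mark 2-fold. Ctsd lies left of the left dashed line in all 4 libraries, Ctsc and Atp6v1h lie to the right of 0 in all 4, and Ctsl is spread over both sides.

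Cathepsins were mostly below control, with medians of -0.50 and -0.46 in silk and -0.56 and -0.35 in sponge at 4 and 2 weeks. Ctsd had 3217 and 2618 CPM in silk at 4 and 2 weeks and 3256 and 2464 CPM in sponge at 4 and 2 weeks, against 6815 CPM in control cells. Every granuloma was below control by more than 2-fold, with log2 ratios of -1.08 and -1.38 in silk and -1.06 and -1.46 in sponge at 4 and 2 weeks (counting intervals of the ratio without added CPM within -1.48 to -1.05). Ctsb had 3728 and 4484 CPM in silk at 4 and 2 weeks and 4576 and 5584 CPM in sponge at 4 and 2 weeks, against 9477 CPM in control cells, below control by more than 2-fold in all but sponge at 2 weeks, where the log2 ratio was -0.76. In single granulomas 2.29% to 2.56% of all genes were that much lower than control. Ctss had 3352 and 3076 CPM in silk at 4 and 2 weeks and 3216 and 3370.2 CPM in sponge at 4 and 2 weeks, against 4736 CPM in control cells. Ctsh, Ctsa, Ctso and Ctsz were also below control in every granuloma, with log2 ratios between -0.81 and -0.02.

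Ctsc went the other way, with 373 and 490.1 CPM in silk at 4 and 2 weeks and 380.1 and 1064 CPM in sponge at 4 and 2 weeks, against 224 CPM in control cells. All 4 granulomas were above control, by log2 ratios of 0.71 and 1.10 in silk and 0.74 and 2.20 in sponge at 4 and 2 weeks, and sponge at 2 weeks stood apart from the other 3. Ctsl lay on both sides, with 858 and 1672 CPM in silk at 4 and 2 weeks and 1889 and 3407 CPM in sponge at 4 and 2 weeks, against 2029.7 CPM in control cells. Its lowest and highest granuloma libraries, silk at 4 weeks and sponge at 2 weeks, differed from control by log2 ratios of -1.23 and 0.74.

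Some other measures moved with this contrast. In Mo-Mac cells 20 genes induced by tissue dissociation summed to 13809.5 and 10267 CPM in silk at 4 and 2 weeks and 13414 and 12574 CPM in sponge at 4 and 2 weeks, against 5867 CPM in control. Nr4a1 and Ier3 were the highest by mean and Klf2 and Jun the lowest. Of the 20, those above control numbered 18 and 16 in silk and 17 and 17 in sponge at 4 and 2 weeks. Of all tested genes, 44.3% and 46.3% in silk and 47.5% and 41.4% in sponge at 4 and 2 weeks were above control. The 6 fibroblast markers summed to 68.4 and 112 CPM in silk at 4 and 2 weeks and 578 and 432 CPM in sponge at 4 and 2 weeks, against 0.659 CPM in control, with none of the 6 at 0 over all libraries. Their part in the result was not tested. Among subclusters with at least 50 cells, only the left-out C9 was shared by control and granulomas, so that the contrast and the makeup by subcluster cannot be told apart.

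Other lysosomal genes were counted from lists of named genes. Among all tested genes, those below control numbered 6019 of 10804 and 6101 of 11355 in silk at 4 and 2 weeks. In sponge they numbered 5837 of 11127 and 6713 of 11447 at 4 and 2 weeks, so the list counts below are to be read beside these. Of 26 other lysosomal hydrolases, those below control numbered 19 and 20 in silk and 17 and 19 in sponge at 4 and 2 weeks, and the medians were -0.37 and -0.38 in silk and -0.35 and -0.50 in sponge at 4 and 2 weeks. Hexa, a subunit of beta-hexosaminidase, was the lowest of them in all 4 granulomas, and Man2b1, an alpha-mannosidase, was next by mean, at -0.66 and -1.30 in silk and -1.07 and -1.37 in sponge at 4 and 2 weeks. Gm2a, the activator of that hexosaminidase, and Neu1, a sialidase, were the highest, Neu1 at 0.27 and 0.53 in silk and 0.64 and 0.21 in sponge at 4 and 2 weeks. Lgmn, the asparaginyl endopeptidase that helps process cathepsins, had 971 and 1159.8 CPM in silk at 4 and 2 weeks and 1852 and 1681 CPM in sponge at 4 and 2 weeks, against 1194 CPM in control cells, on both sides of control. Of 15 lysosomal membrane genes, those below control numbered 13 and 12 in silk and 12 and 15 in sponge at 4 and 2 weeks, with medians of -0.31 and -0.18 in silk and -0.30 and -0.25 in sponge at 4 and 2 weeks. Lamp1 and Cd68, glycoproteins of that membrane, were the lowest, Lamp1 at -1.26 and -1.12 in silk and -1.38 and -1.12 in sponge at 4 and 2 weeks, and Mcoln1, a calcium channel, and Cd63 the highest. The 13 partners and assembly factors of the pump had medians of -0.02 and 0.14 in silk and 0.17 and 0.09 in sponge at 4 and 2 weeks, close to the pump's own. Atp6ap2, an accessory subunit, had 319 and 348 CPM in silk at 4 and 2 weeks and 400.4 and 249.6 CPM in sponge at 4 and 2 weeks, against 177 CPM in control cells, and Atp6ap1, another, had 269.5 and 338 CPM in silk at 4 and 2 weeks and 312 and 267 CPM in sponge at 4 and 2 weeks, against 323 CPM in control cells. Dmxl2, of the complex that helps V1 and V0 join, was the highest of the 13 in each granuloma, by log2 ratios of 1.25 and 1.99 in silk and 1.85 and 1.39 in sponge at 4 and 2 weeks, and its relative Dmxl1 and Wdr7 were the lowest.

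The inhibitors of cathepsins did not share 1 direction. Cstb, a cytosolic inhibitor of cysteine cathepsins, had 1399.5 and 1881 CPM in silk at 4 and 2 weeks and 1653 and 1591 CPM in sponge at 4 and 2 weeks, against 971 CPM in control cells, above control in each granuloma. Cst3, the secreted cystatin C, had 1669.8 and 1218 CPM in silk at 4 and 2 weeks and 1509 and 1664 CPM in sponge at 4 and 2 weeks, against 2033 CPM in control cells, below control in each. Cst7, cystatin F, stayed at 0.135 to 2.2 CPM. Serpinb6a, which inhibits serine proteases, had log2 ratios of -1.52 and -1.45 in silk and -1.15 and -1.30 in sponge at 4 and 2 weeks. Genes that regulate lysosomal transcription and its nutrient sensing had medians of -0.15 and -0.08 in silk and -0.14 and -0.15 in sponge at 4 and 2 weeks, with Lamtor1 and Tfeb lowest and Tfec and Tfe3 highest by mean. M6pr, a receptor that sorts cathepsins to lysosomes, was the highest of 6 sorting genes in each granuloma, at 0.89 and 1.10 in silk and 1.12 and 0.95 in sponge at 4 and 2 weeks, and Sort1, sortilin, was the lowest. By mean Gnptab and Gnptg, of the enzyme that tags cathepsins with mannose phosphate, came next to them. Class II presentation genes had medians of 1.14 and 0.15 in silk and -0.01 and 0.48 in sponge at 4 and 2 weeks, with H2-DMb1 and H2-Eb1 highest and Ciita and H2-Oa lowest by mean.

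Silk was set against sponge at matched times. Of 24 members, Ctsl alone was called lower in silk Mo-Mac cells at both times, where 0.169% of all tested genes were, and 0 were called higher, where 0.0212% were. Ctsl had 858 CPM in silk and 1889 CPM in sponge at 4 weeks, a log2 ratio of -1.13 (counting interval -1.18 to -1.10). At 2 weeks it had 1672 CPM in silk and 3407 CPM in sponge, a log2 ratio of -1.02 (-1.04 to -1.01), just past the 2-fold limit. With the subclusters shared by both libraries weighted equally the log2 ratio at 2 weeks was -0.94 and the call was lost, as it was in each of 5 further alternatives, and over all alternatives the 2-week ratio lay between -1.07 and -0.41.

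Ctsc was lower in silk at 2 weeks, with 490.1 CPM in silk and 1064 CPM in sponge (log2 ratio -1.10, where 1.9% of genes were at least 2-fold lower), and stood at 373 CPM in silk and 380.1 CPM in sponge at 4 weeks (-0.03). Over all Mo-Mac cells most subunits of the pump were lower in silk at 4 weeks and higher in silk at 2 weeks. At 4 weeks 1 of 14 was higher in silk, where 44.4% of all genes were, with a median of -0.26 beside -0.03 for all genes, and at 2 weeks 11 of 15 were higher, where 60% of all genes were, with a median of 0.13 beside 0.05. None of these reached 2-fold. The 2-week direction was not that within C7, where 3 of 14 subunits were higher in silk (median -0.09, beside 0.08 for all genes). Within C3, 5 of 14 subunits were higher in silk (median -0.08), beside 2534 of 4284 genes (median 0.07). The median of the subunits was -0.01 in C6, 0.02 in C5, 0.08 in C4 and 0.19 in C8. The part of subcluster makeup in the 2-week values over all Mo-Mac cells was not tested. Atp6v0a2 and Ctsz were higher in silk at both times, by log2 ratios of 0.42 and 0.17 and of 0.20 and 0.15 at 4 and 2 weeks. Ctso was the third highest by mean, at 0.29 and -0.03. Over all Mo-Mac cells Ctsb was lower in silk at both times, by -0.30 and -0.32 at 4 and 2 weeks. At equal subcluster weights its log2 ratios were -0.30 and 0.05, so the 2-week direction was not kept. Of the pump Atp6v1g1 and Atp6v0a1 had the lowest means, at -0.43 and -0.43 at 4 weeks.

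**Figure D4:**
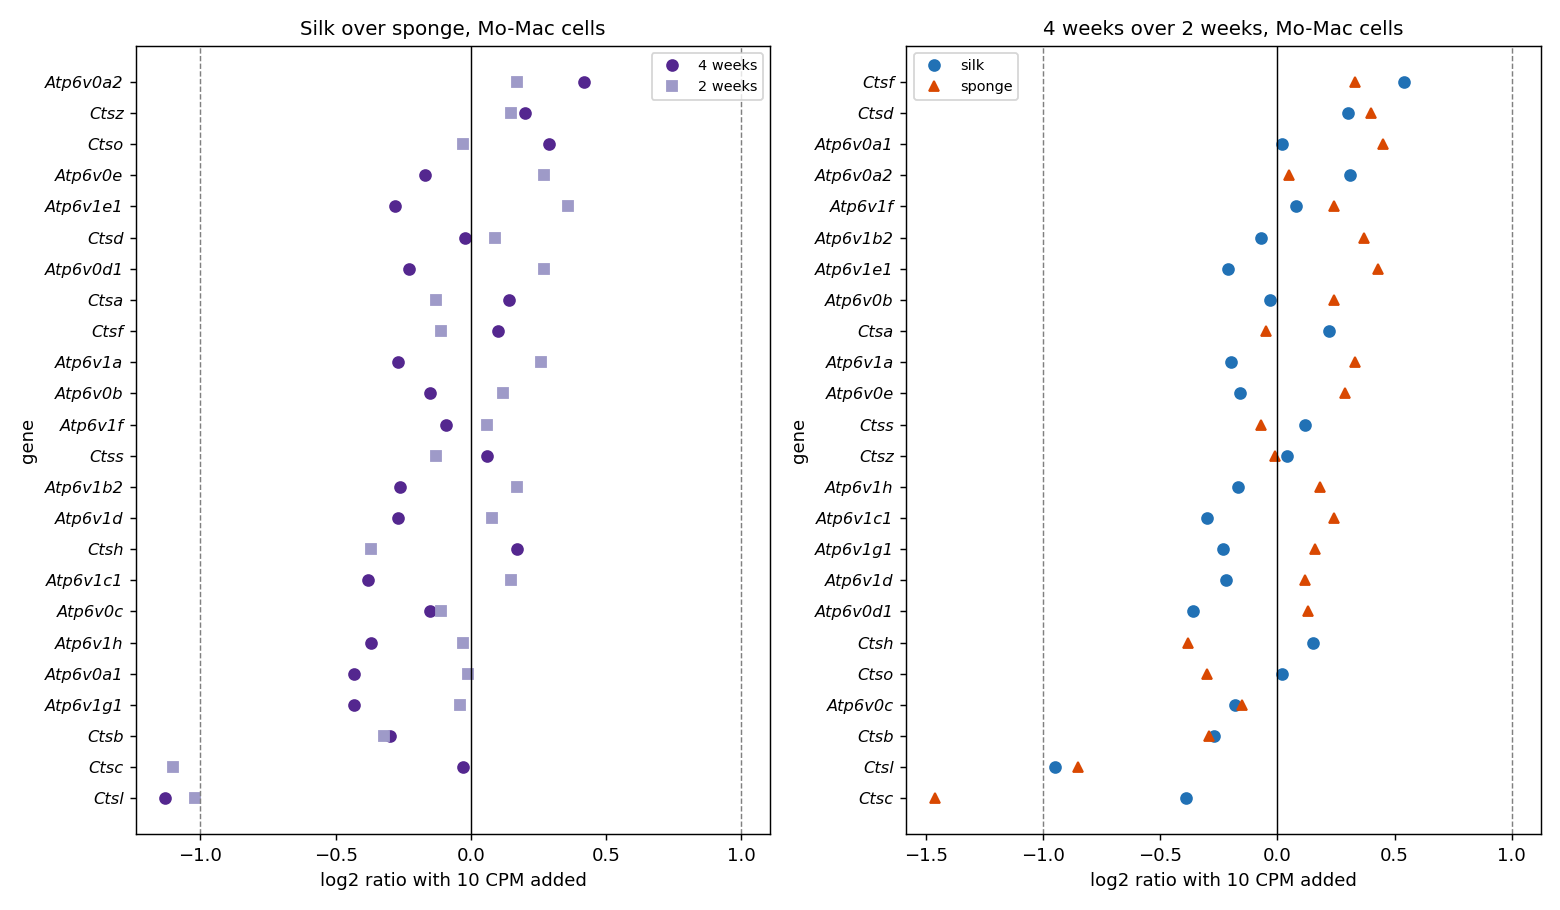
Log2 ratios in Mo-Mac cells with 10 CPM added, silk over sponge at 4 and 2 weeks (left) and 4 weeks over 2 weeks in silk and sponge (right), for the members with at least 100 UMIs in every contrast; dashed lines mark 2-fold. In the left panel Ctsl lies left of the left dashed line at both times, and in the right panel Ctsl and Ctsc have the most negative ratios.

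Within subclusters the difference in Ctsl was uneven. In C7, the largest granuloma subcluster, it had 1049 CPM in silk and 2295 CPM in sponge (log2 ratio -1.12) at 4 weeks and 1795 CPM in silk and 6667 CPM in sponge (log2 ratio -1.89) at 2 weeks. In C6 it had 329.9 CPM in silk and 1209 CPM in sponge (log2 ratio -1.84) at 4 weeks and 1013 CPM in silk and 1288 CPM in sponge (log2 ratio -0.34) at 2 weeks. In C4 at 2 weeks it had 707 CPM in silk and 2778 CPM in sponge (log2 ratio -1.96). In C5 and C8 at 2 weeks silk and sponge were close, with log2 ratios of 0.03 and -0.24. Sponge at 2 weeks was the highest library in C3, C4, C6, C7 and C8, and silk at 2 weeks in C5 by a small margin.

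For Ctsc the 2-week difference differed by subcluster too. In C7 it had 426 CPM in silk and 383 CPM in sponge (log2 ratio 0.15). The log2 ratio was 0.14 in C6, 0.12 in C5, -0.17 in C3, -0.39 in C8 and -0.65 in C4. At 2 weeks C4 held 139 cells in silk and 2542 in sponge, and C7 held 4461 in silk and 1122 in sponge. With subclusters weighted equally the 2-week log2 ratio of Ctsc was -0.16. The part of subcluster makeup in the difference over all Mo-Mac cells was not tested.

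**Figure D5:**
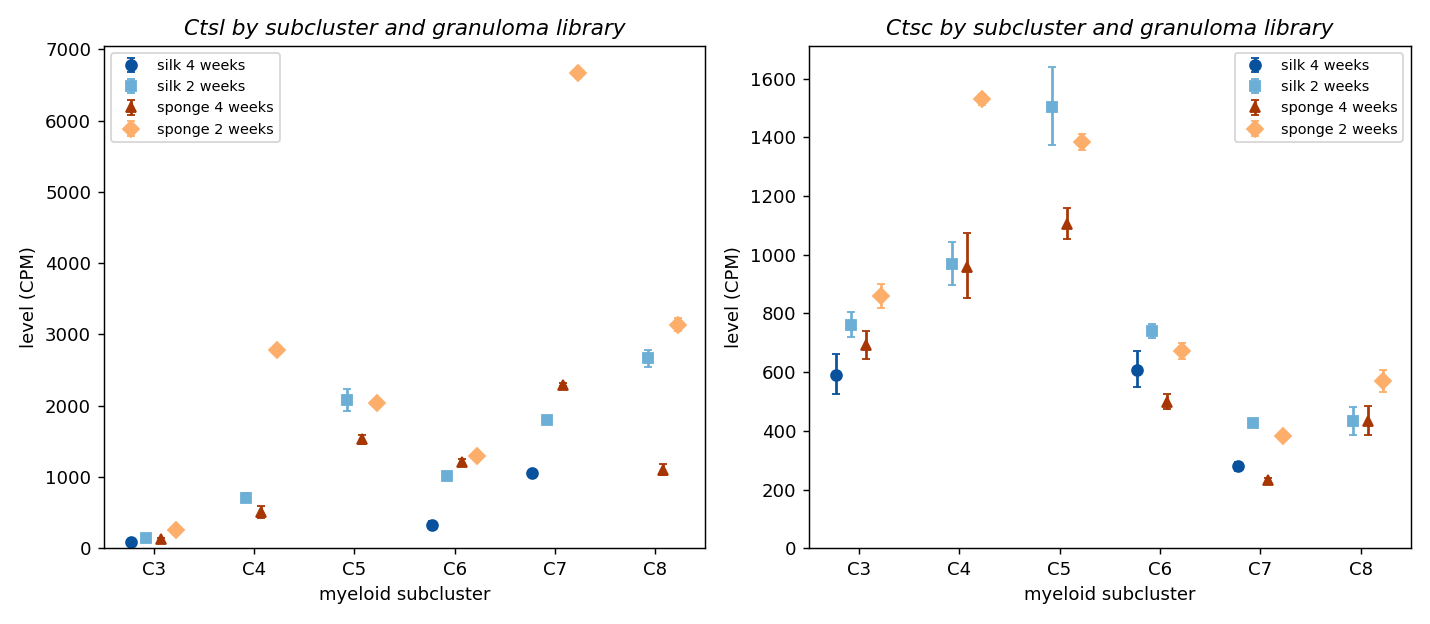
CPM of Ctsl (left) and Ctsc (right) in the granuloma subclusters C3 to C8, each point 1 library with at least 50 cells and bars the 95% interval from counting error. For Ctsl sponge at 2 weeks reaches 6667 CPM in C7, far above the other libraries, and for Ctsc the 4 libraries lie in C7 between 233 and 426 CPM while C4 and C5 stand higher.

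Fibroblast RNA within Mo-Mac sums moved with the material: the 6 fibroblast markers summed to 68.4 and 112 CPM in silk and 578 and 432 CPM in sponge at 4 and 2 weeks. Fibroblasts themselves held 806 and 598 CPM in silk at 4 and 2 weeks and 676 and 839.5 CPM in sponge at 4 and 2 weeks for Ctsl, less than the sponge Mo-Mac cells. The macrophage yardstick genes stood at 2582 CPM in silk and 5376 CPM in sponge at 2 weeks. Of class II genes, 7 of 7 tested were higher in silk at 4 weeks, where 44.4% of all tested genes were. Their part in the result was not tested.

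Time was compared within each material. Of 24 members, 0 were called higher and 0 lower at 4 weeks in both materials, where 0.0496% and 0.199% of all tested genes were. Ctsl was lower at 4 weeks in both, with 858 CPM in silk at 4 weeks and 1672 CPM in silk at 2 weeks (-0.95) and 1889 CPM in sponge at 4 weeks and 3407 CPM in sponge at 2 weeks (-0.85). Within C7 the log2 ratios of Ctsl were -0.77 in silk and -1.53 in sponge, and it was lower at 4 weeks in every subcluster that could be compared, 3 in silk and 6 in sponge. Ctsb was lower at 4 weeks in both materials too, by log2 ratios of -0.27 and -0.29 in silk and sponge.

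Ctsc in sponge had 380.1 CPM in Mo-Mac cells at 4 weeks and 1064 CPM in those at 2 weeks (-1.46, where 1.57% of genes were at least 2-fold lower), and in silk 373 CPM in Mo-Mac cells at 4 weeks and 490.1 CPM in those at 2 weeks (-0.39). At equal subcluster weights the sponge log2 ratio of Ctsc was -0.46. Over all Mo-Mac cells Ctsd was higher at 4 weeks in both materials, by 0.30 in silk and 0.40 in sponge. At equal subcluster weights its silk ratio was 0.35, and in sponge it had 2046 CPM at 4 weeks and 2049 CPM at 2 weeks. Ctsf was also higher over all Mo-Mac cells, by 0.54 and 0.33, at under 10 CPM, and Atp6v0a1 by 0.02 and 0.45. The equal-weight ratios of Atp6v0a1 were -0.10 in silk and 0.15 in sponge. Over all Mo-Mac cells most subunits of the pump were higher at 4 weeks in sponge and lower at 4 weeks in silk. In sponge 13 of 14 were higher, where 60.8% of all genes were, with a median of 0.24, and in silk 3 of 14 were higher, where 47.4% of all genes were, with a median of -0.18. All genes had medians of 0.06 in sponge and -0.01 in silk. In silk, C6 alone had all 14 subunits lower at 4 weeks, with a median of -0.41, where silk at 4 weeks had 315 such cells. The median C6 cell held 948 UMIs in silk at 4 weeks and 1652 at 2 weeks, and the part of depth was not tested. The share of all genes lower within C6 is not given here, so the count cannot be set against it. In sponge the subcluster medians at 4 over 2 weeks ran from -0.42 in C8 to 0.12 in C6 and C7, and with subclusters weighted equally the sponge median was -0.05.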

How the data were processed

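The authors deposited raw UMI counts per gene and cell, with each cell's library, class, subcluster and percent of mitochondrial UMIs in a deposited table. Cell Ranger 3.0.0, Seurat 3.0 and build mm10 are named per the submitters' processing notes; filters on cells were not given in the sources used here, nor was any treatment of doublets, and no doublet caller was run. Subclusters C9, KC, BP and the low-quality fibroblasts, 1462 cells, were left out. Counts were summed per library and class or subcluster of at least 50 cells and scaled to CPM over all genes. Ratios are log2 with 10 CPM added. The 95% intervals are exact conditional binomial intervals from the counts with nothing added, and they cover counting error only. The script was tested on simulated data with known fold changes. Total UMIs per library were 11207419 and 63570615 in silk at 4 and 2 weeks, 50734356 and 96066597 in sponge at 4 and 2 weeks and 80521014 in control. Of the barcodes, 153 occurred in more than 1 library.

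The members and the gene lists were chosen with earlier results of these data known. Named were members past 2-fold in every contrast, then the 3 highest and 3 lowest by mean log2 ratio, and of each list the 2 highest and 2 lowest in granulomas against control. Alternatives changed the added CPM, the UMI minimum, the fold, the scaling, the cells kept and the weighting of cells or subclusters. 3' counts are not per length, so levels were compared within a gene. Python 3.11.15, NumPy 2.4.6, SciPy 1.17.1, pandas 2.3.3 and matplotlib 3.10.9 were used.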

Additional observations from a re-analysis of the deposited data

Results flagged for a closer look

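Subcluster C9 was left out of the Mo-Mac sums, and it was the only myeloid subcluster with at least 50 cells in control and in all 4 granulomas, with 61 and 182 cells in silk at 4 and 2 weeks, 229 and 317 in sponge at 4 and 2 weeks and 129 in control. Of the members tested, 3 of 12 and 4 of 19 in silk and 5 of 20 and 6 of 22 in sponge at 4 and 2 weeks were at least 2-fold higher there than in control C9 cells, where 12.1% and 16.1% of all genes tested in silk and 15.9% and 14.6% in sponge were. Markers of other cell types moved with this contrast: the 6 mast cell or basophil markers summed in C9 to 77.1 and 67.0 CPM in silk and 332 and 487 CPM in sponge at 4 and 2 weeks, against 4521 CPM in control, and the 7 dendritic cell markers to 4122 and 3633 CPM in silk and 5840.3 and 2801 CPM in sponge at 4 and 2 weeks, against 1055 CPM in control. Their part in these ratios was not tested. Atp6v0c had log2 ratios of 1.14 and 1.73 in silk and 1.48 and 1.87 in sponge at 4 and 2 weeks. Ctsc had 1.63 and 1.54 in silk and 1.42 and 2.29 in sponge, with 246 and 232 CPM in silk and 213 and 395 CPM in sponge at 4 and 2 weeks, against 73.0 CPM in control. Ctsz had 1.05 and 1.47 in silk and 1.44 and 1.27 in sponge. For these 3 genes all 4 granulomas were above control.

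Other members passed 2-fold in C9 in 1 or 2 libraries. Atp6v1a had 1.05 in silk at 2 weeks. Atp6v0d1 had 1.10 and 1.07 in sponge at 4 and 2 weeks, and Atp6v1h had 1.12 in sponge at 4 weeks. Ctsl had 2.11 and Ctss 1.18 in sponge at 2 weeks. The macrophage yardstick genes, which mark RNA of other macrophages, summed in C9 to 113 and 229.8 CPM in silk at 4 and 2 weeks and 179 and 418 CPM in sponge at 4 and 2 weeks, against 227 CPM in control, and their part in these ratios was not tested.

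Atp6v1e1, of the pump's outer stalk, differed between the times in the direction of silk against sponge. Over all Mo-Mac cells it had log2 ratios of -0.28 at 4 weeks and 0.36 at 2 weeks. At equal subcluster weights they were -0.34 and 0.07. Within C7 at 2 weeks it had 527 CPM in silk and 520 CPM in sponge. The difference between the times was not tested.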

How the results depend on the processing

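Of 172 counts of members under the alternatives, 155 stayed within 1.5 times the value given and 17 moved. Of 584 medians, 417 stayed within 0.1 of the log2 value given, and 11 changed sign, 6 of them after centring on all genes. The 417 include 48 under the 1.5-fold threshold, which does not enter a median, so these could not move. Another 48 of the 584 are for genes of at least 50 CPM, and 32 of these stayed. Counts named here are of members in all contrasts of a comparison. The 1 member lower in silk than sponge (Ctsl) became 0 with the mean over cells, each cell thinned to 1000 UMIs, without the 5% of cells with most UMIs, without cells above 10% mitochondrial UMIs, with all deposited cells and with subclusters weighted equally. The 1 member lower in Mo-Mac cells than in fibroblasts (Ctsf) became 0 with 50 CPM added, with thinned cells and for genes of at least 50 CPM, the last chosen after seeing the data. At 1.5-fold, 2 members were higher (Atp6v1h and Ctsc) and 2 lower (Ctsb and Ctsd) in granulomas than in control, 1 lower at 4 than 2 weeks (Ctsl), 11 higher in Mo-Mac cells than in neutrophils and 1 lower than in endothelial cells (Atp6v0a2). With thinned cells 1 member was higher in granulomas than in control (Atp6v1h). With a minimum of 20 UMIs, 1 was lower in Mo-Mac than in NK/T cells (Ctsw). Centring left 4 higher than in neutrophils. Without ribosomal and mitochondrial genes the pump's spread over subclusters was 2.97-fold. In granulomas against control Ctsd lay between -1.73 and -1.04 in all alternatives. The causes were not tested. No paired analysis was possible because each group had 1 library. With 1 library a group, differences between animals or preparations cannot be separated from the material or the time, and intervals show counting error only.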
